A study of Mus musculus with 10 samples.

Results

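The genes followed here carry the synthesis of prostaglandins, thromboxane and leukotrienes and were chosen by their place in the pathway, with earlier results of these data known. They are Pla2g4a, Ptgs1, Ptgs2, Ptges, Tbxas1, Alox5, Alox5ap, Lta4h, Ltc4s and Alox15. All 10 were found among the 39488 rows of the gene read count table, and 8 of them had enough counts to be among the 12654 genes tested. RNA-seq had been performed on mouse peritoneal macrophages in 5 control and 5 ox-LDL libraries. All cells came from C57BL/6 mice labelled as 8 weeks old and were washed out of the peritoneal cavity on day 3 after thioglycollate, an irritant that draws inflammatory macrophages there. The ox-LDL group was primed with LPS (100 ng/ml), a bacterial endotoxin, and then received oxidized low-density lipoprotein (100 µg/ml) for 16 h, whereas the control group is labelled untreated. One protocol field common to all samples mentions the stimulation for the controls as well, so what the control cells received is not fully settled. As labelled, LPS and ox-LDL differ together between the groups, and their shares in a difference cannot be told apart.

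Eicosanoids are short-lived lipid signals made from arachidonic acid. Cytosolic phospholipase A2 (Pla2g4a) cuts arachidonic acid out of membrane phospholipids, and the pathway then splits. In the cyclooxygenase branch, COX-1 (Ptgs1) or COX-2 (Ptgs2) makes prostaglandin H, which microsomal prostaglandin E synthase (Ptges) turns into prostaglandin E and thromboxane A synthase (Tbxas1) into thromboxane. In the lipoxygenase branch, 5-lipoxygenase (Alox5) and the membrane protein that presents its substrate (Alox5ap, also called FLAP) make the unstable leukotriene A, which leukotriene A hydrolase (Lta4h) turns into the neutrophil attractant leukotriene B and leukotriene C synthase (Ltc4s) into the cysteinyl leukotrienes. Alox15 encodes a separate lipoxygenase of resident peritoneal macrophages. In macrophages COX-1 is known as a steadily expressed enzyme, whereas COX-2 and Ptges are known to be induced by endotoxin.

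Total counts were between 20094647 and 20687289 per control library and between 19257131 and 20358017 per ox-LDL library. Levels are given as CPM, counts scaled to the size of the library with TMM factors, unless FPKM, which is scaled by gene length as well, is named. The TMM factors were 0.916 to 1.18 in control libraries and 0.593 to 1.19 in ox-LDL libraries. The lowest, in ox-LDL replicate 2, raises every CPM value of that library, whereas FPKM does not use these factors. A gene was called at an adjusted p below 0.01 in edgeR's quasi-likelihood test, and 14.7% of all genes tested were called, 9.4% as higher and 5.35% as lower in the ox-LDL libraries. All ox-LDL libraries lay above all controls for 11.6% of the genes tested and below them for 9.11%. Macrophage markers (Adgre1, Csf1r, Cd68, Itgam, Lyz2, Fcgr1 and Mertk) were present in both groups, with a summed level of 23065 to 42749 CPM in control libraries and 12988 to 28177 CPM after ox-LDL (scaled by library size alone). Most of this sum was Lyz2, whose median was 23900 CPM in control libraries and 9674 CPM after ox-LDL, and Itgam also had a lower median after ox-LDL, whereas the other 5 had higher medians, such as Adgre1 (307 and 1100.1 CPM) and Csf1r (196 and 315 CPM). Of the 7 markers, 1 was called higher and 0 lower. In the same scaling, the platelet list, whose cells are rich in Ptgs1 and Tbxas1, summed to at most 0.641 CPM in control libraries and 1.17 CPM after ox-LDL. In bulk RNA, fewer cells of a type and less RNA per cell cannot be told apart. Control replicate 5 had the most Ptgs2 and Ptges among the controls, and ox-LDL replicate 5 the most of both among its group. Short genes were high relative to the group mean in ox-LDL replicate 2 and in control replicates 1 and 4, with Spearman correlations between deviation and gene length of -0.66, -0.59 and -0.49 across 12175 genes, a description with no test.

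Of the 8 tested members 3 were called, all as higher in the ox-LDL libraries, namely Pla2g4a, Ptgs2 and Ptges. The groups did not overlap for these 3 and, on the lower side, for 2 more (Lta4h and Ltc4s), to be read against the background shares above. For the 3 called genes, the 250 bases upstream of their RefSeq transcription starts are shown. RefSeq promoters (build GRCm38.p6) were at hand for 8 of the 10 members and each of these was found at a single place in mm9, the build of the reads. The sequences are printed on the strand of the gene, and capitals mark the motifs found upstream of the start. The Ptgs2 sequence lies at chr1:151946911-151947160 on the plus strand, that of Ptges at chr2:30758818-30759067 on the minus strand and that of Pla2g4a at chr1:151808421-151808670 on the minus strand.
Ptgs2: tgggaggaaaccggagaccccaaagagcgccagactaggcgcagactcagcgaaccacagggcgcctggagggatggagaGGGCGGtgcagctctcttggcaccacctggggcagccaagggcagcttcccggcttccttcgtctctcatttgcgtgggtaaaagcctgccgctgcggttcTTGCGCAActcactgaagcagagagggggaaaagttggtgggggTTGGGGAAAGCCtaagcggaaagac
Ptges: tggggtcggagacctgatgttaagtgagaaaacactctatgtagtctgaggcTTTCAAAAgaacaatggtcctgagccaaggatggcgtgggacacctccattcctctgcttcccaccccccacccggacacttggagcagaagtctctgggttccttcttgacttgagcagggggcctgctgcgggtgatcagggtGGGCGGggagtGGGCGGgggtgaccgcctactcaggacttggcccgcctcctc
Pla2g4a: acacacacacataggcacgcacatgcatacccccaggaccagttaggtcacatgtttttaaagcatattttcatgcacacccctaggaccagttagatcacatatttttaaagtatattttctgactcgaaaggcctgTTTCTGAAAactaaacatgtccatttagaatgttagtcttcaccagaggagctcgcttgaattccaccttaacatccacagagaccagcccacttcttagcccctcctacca

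The motifs searched on both strands in these bases and the 50 after the start were those of factors known in macrophages. NF-kB, which inflammatory signals activate, was searched as GGNNTTNCC and C/EBP as TTNNGNAA. The core of a CRE, the element bound by the factor CREB, was searched as TGACG and that of AP-1 as TGANTCA. STAT factors were searched as TTCNNNGAA and the myeloid factor PU.1 as GAGGAAG. For general promoter elements, the GC box was searched as GGGCGG, while the TATA box was searched as TATAAA. The Ptgs2 window held a GC box match at -170, C/EBP matches at -69 and -25 and an NF-kB match at -22, the last overlapping the C/EBP match beside it. A CRE core began at +14 of the RefSeq start, which itself lies 93 bases upstream of the start in the GENCODE annotation of mm9. This site is shown with 10 bases on each side and the match in capitals.
Ptgs2 CRE core: gtcaccactaCGTCAcgtggagtcc
The Ptges start used here lies 26566 bases inside the gene as GENCODE draws it. Its window held a C/EBP match at -198 and GC boxes at -53 and -42, and the Pla2g4a window held overlapping C/EBP matches at -112 and -111. Such matches are common. Among 32851 RefSeq promoter windows, 16.0% held the NF-kB letters, 40.7% the C/EBP letters, 20.8% the CRE core and 35.7% the GC box. The letters of AP-1 were in 7.81%, those of STAT in 8.30%, and those of PU.1 and the TATA box in 13.6% each. Of the members that were not called, Ltc4s also held the NF-kB letters, at -139.

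The phospholipase that supplies both branches rose. Pla2g4a (NCBI gene 18783, chromosome 1 of mm9 from 151676748 to 151808420, minus strand) was at 18.4, 17.9, 20.4, 16.2 and 14.1 CPM in control replicates 1 to 5 and at 79.7, 66.0, 64.6, 53.6 and 156 CPM in ox-LDL replicates 1 to 5. All 5 values after ox-LDL exceeded all 5 control values. The log2 fold change was 2.27 (standard error, SE, 0.29, edgeR adjusted p = 1.90e-04), or 4.83-fold. Its means were 17.4 ± 2.38 and 84.1 ± 41.5 CPM (SD, n = 5 each), with the highest value in ox-LDL replicate 5. Over the 10 libraries, the 3 genes whose log2 levels followed Pla2g4a most closely were Herc6, Ifi203 and Ifi204, with root mean square differences of 0.26, 0.27 and 0.28 after each gene was centred on its own mean.

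Of the cyclooxygenase genes, Ptgs2 was called higher and Ptgs1 was not called. Ptgs2 (NCBI gene 19225, chromosome 1 of mm9 from 151947254 to 151955140, plus strand) held 9, 3, 20, 2 and 182 counts in control replicates 1 to 5 and 828, 833, 4927, 3967 and 21482 counts in ox-LDL replicates 1 to 5. In CPM these were at most 0.856 in control replicates 1 to 4, 7.91 in control replicate 5, and 36.0, 71.3, 240.3, 190 and 1283 in the ox-LDL libraries. The groups did not overlap, yet the ox-LDL libraries themselves spanned a wide range and replicate 5 was far above the others. The fitted log2 fold change was 7.57 (SE 1.47, edgeR adjusted p = 0.00268), and Ptgs2 ranked at 25 by fold change among the 1189 genes called higher. The size of this value rested on the 2 libraries numbered 5. Without control replicate 5, in which Ptgs2 stood at 0.616% of its level in ox-LDL replicate 5, the log2 fold change was 9.81, and without ox-LDL replicate 5 it was 6.11. With both left out it was 8.33 (edgeR adjusted p = 3.46e-04). When no gene was removed for low counts, the adjusted p of Ptgs2 was 0.0257 and the call was lost.

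Ptgs1 (NCBI gene 19224, chromosome 2 of mm9 from 36085946 to 36107792, plus strand), the other cyclooxygenase, was at 8.13, 5.26, 10.0, 6.90 and 7.17 CPM in control replicates 1 to 5 and at 5.44, 2.23, 4.68, 5.88 and 1.61 CPM in ox-LDL replicates 1 to 5. The lowest values were those of ox-LDL replicates 2 and 5, and the groups overlapped. Its log2 fold change of -0.91 (SE 0.35) did not pass the test (edgeR adjusted p = 0.0750). Per length, Ptgs1 was the more abundant cyclooxygenase in each control library and Ptgs2 in each ox-LDL library. The ratio of Ptgs2 to Ptgs1 in FPKM was between 0.00560 and 0.0525 in control replicates 1 to 4, 0.603 in control replicate 5 and 4.30, 21.1, 30.8, 20.7 and 381 in ox-LDL replicates 1 to 5. These ratios restate the values of both genes and were not tested.

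**Figure D1:**
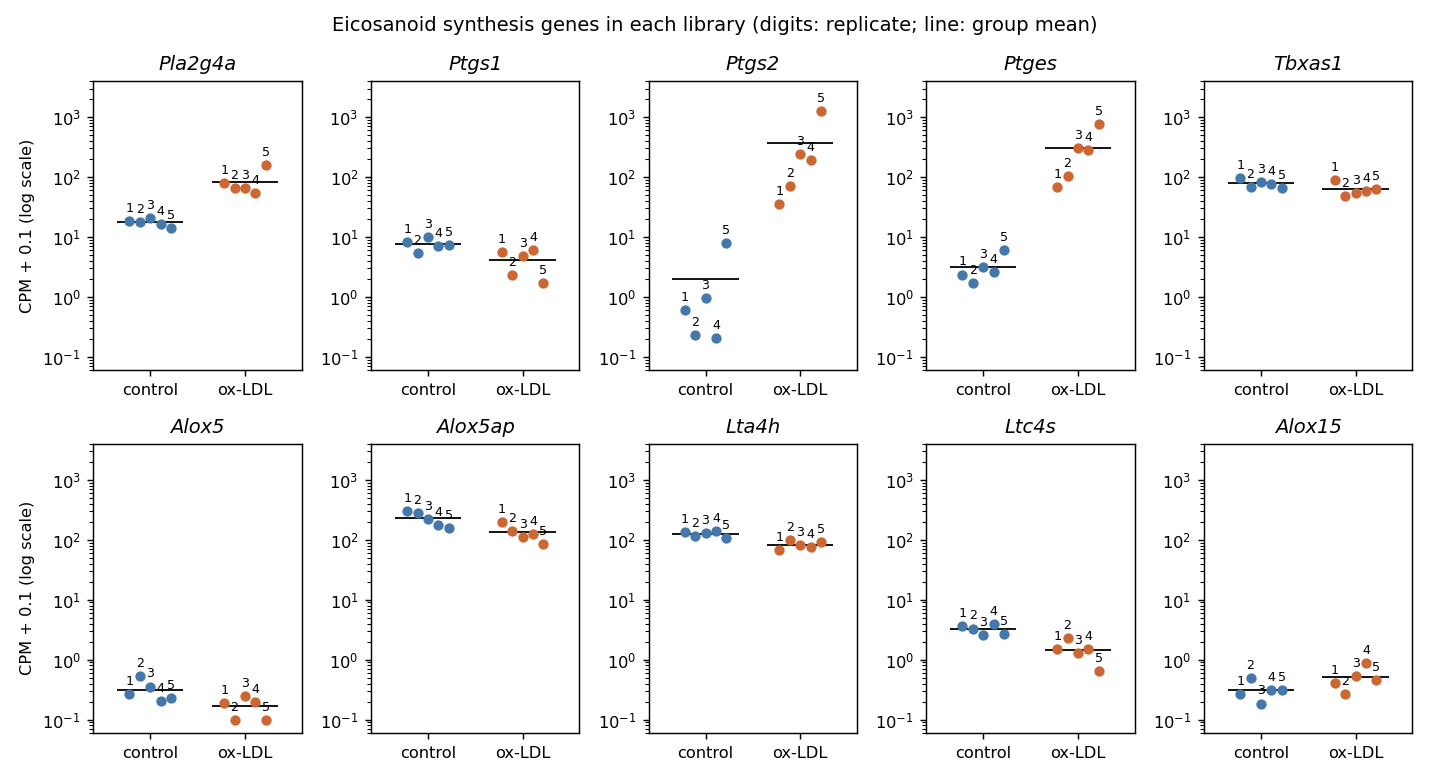
Level of each of the 10 genes in each library, as CPM + 0.1 on a log scale, with the replicate number above each point and a line at the group mean. Ptgs2, Ptges and Pla2g4a have all 5 ox-LDL libraries above all 5 controls, control replicate 5 is the highest control for Ptgs2 (7.91 CPM) and Ptges (6.08 CPM), and Alox5 and Alox15 lie below 1 CPM throughout.

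Of the terminal synthases, Ptges was called higher and Tbxas1 was not called. Ptges (NCBI gene 64292, chromosome 2 of mm9 from 30744991 to 30785383, minus strand) was at 2.27, 1.63, 3.08, 2.47 and 6.08 CPM in control replicates 1 to 5 and at 68.2, 105, 300.2, 287 and 767 CPM in ox-LDL replicates 1 to 5. Replicates 1 and 2 were again the lowest ox-LDL libraries and replicate 5 the highest. The log2 fold change was 6.62 (SE 0.74, edgeR adjusted p = 8.07e-05). Without ox-LDL replicate 5 it was 5.91 and without control replicate 5 it was 7.01. A gene on the same strand, Gm13400, overlaps the annotated span of Ptges, so reads may be shared. Of the 3 genes closest to Ptges, only Tmeff1 has a paired symbol (root mean square difference 0.42).

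Tbxas1 (NCBI gene 21391, chromosome 6 of mm9 from 38825403 to 39034584, plus strand) was at 66.5 to 96.6 CPM (median 77.4) in control libraries. In ox-LDL replicates 1 to 5 it was at 90.1, 48.8, 53.4, 58.5 and 63.4 CPM. Apart from replicate 1, each ox-LDL library lay below the lowest control. The log2 fold change was -0.32 (SE 0.20) and did not pass the test (edgeR adjusted p = 0.268). Tbxas1 overlaps Hipk2 on the opposite strand, and use of strand in the counting is not stated. Per length, thromboxane synthase mRNA exceeded that of Ptges by 20.9 to 82.1 times in the control libraries. In FPKM, the ratio of Ptges to Tbxas1 was 0.392 in ox-LDL replicate 1, 1.11 in replicate 2, 2.92 in replicate 3, 2.55 in replicate 4 and 6.17 in replicate 5, so that Ptges was the more abundant of the pair in 4 of 5 ox-LDL libraries.

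None of the lipoxygenase genes rose at the threshold, and the first enzyme of the branch was almost absent from the counts. Alox5 (NCBI gene 11689, chromosome 6 of mm9 from 116360095 to 116411196, minus strand) held 3, 10, 6, 2 and 3 counts in control replicates 1 to 5 and 2, 0, 3, 2 and 0 counts in ox-LDL replicates 1 to 5, a sum of 24 and 7. It was removed by the filter on low counts. On the log2(CPM + 1) scale, with a pseudocount of 1, the ox-LDL mean differed from the control mean by -0.19 (two-sided exact permutation test over all arrangements, p = 0.0317). That p rose to 0.0794 when CPM were scaled by library size alone, and it was above 0.05 when any of 6 libraries was left out (up to 0.0873). The mRNA of its partner protein was abundant. In FPKM, Alox5ap was 331 ± 89.5 in control and 180 ± 90.6 in ox-LDL libraries (SD, n = 5 each), against 0.0880 ± 0.0581 and 0.0280 ± 0.0268 for Alox5. In the 8 libraries with any Alox5 count, Alox5ap exceeded Alox5 by at least 2484 times. This ratio rests on 2 to 10 Alox5 counts per library, so its size is imprecise.

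Alox5ap (NCBI gene 11690, chromosome 5 of mm9 from 150076634 to 150099621, plus strand) was at 298, 284, 223, 177 and 158 CPM in control replicates 1 to 5 and at 201, 141, 112, 126 and 85.2 CPM in ox-LDL replicates 1 to 5. It was the most abundant of the 10 genes per length in every control library. The groups overlapped through ox-LDL replicate 1, and the log2 fold change of -0.78 (SE 0.27) did not pass the test (edgeR adjusted p = 0.0506).

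Both enzymes that act on leukotriene A were lower in every ox-LDL library than in every control library, but neither passed the threshold of 0.01. Lta4h (NCBI gene 16993, chromosome 10 of mm9 from 92916141 to 92947641, plus strand) was at 135, 116, 130, 138 and 107 CPM in control replicates 1 to 5 and at 67.0, 99.2, 81.2, 75.6 and 92.3 CPM in ox-LDL replicates 1 to 5. The log2 fold change was -0.59 (SE 0.17, edgeR adjusted p = 0.0237). Lta4h in ox-LDL replicate 2 was the highest of its group in CPM but the lowest in FPKM (30.4), which does not use the low TMM factor of that library. Ltc4s (NCBI gene 17001, chromosome 11 of mm9 from 50049971 to 50052118, minus strand) was scarce, with 59 to 75 counts per control library and 32, 26, 24, 29 and 9 counts in ox-LDL replicates 1 to 5. In CPM this was 3.14 ± 0.572 against 1.34 ± 0.605 (SD, n = 5 each), on the log2 scale a difference of -1.23 (SE 0.34, edgeR adjusted p = 0.0194). Without ox-LDL replicate 2, 1 of the 3 libraries with high counts of short genes, both were called. The log2 fold changes were then -0.71 for Lta4h (edgeR adjusted p = 0.00378) and -1.51 for Ltc4s (edgeR adjusted p = 0.00363). Leaving out that library also raised the genes called lower among all tested from 677 to 1502. With each library's trend on gene length removed, Lta4h was called (-0.56, edgeR adjusted p = 0.00624) and Ltc4s was not (-1.01, edgeR adjusted p = 0.0344). Ltc4s overlaps Gm16641 on the opposite strand.

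Ltc4s is known from eosinophils and mast cells as well as macrophages, and was itself at only 2.52 to 3.86 CPM in control libraries. The markers of both cell types are set beside it here, scaled by library size alone. Of 5 eosinophil markers 4 were matched, with a summed level of 2.61 to 7.13 CPM in control libraries and 0.365 to 0.949 CPM after ox-LDL. Most of this was Siglecf, while Prg2, a defining granule protein, had no count in any control library. The 5 mast cell markers summed to 0.789 to 11.2 CPM in control libraries and 0.417 to 3.99 CPM after ox-LDL. Of the eosinophil markers 1 was tested and it was called lower, and of the mast cell markers 2 were tested and 0 called. The eosinophil sums did not overlap between the groups and the mast cell sums did, and the part of these cells in the level of Ltc4s was not tested.

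Alox15 (NCBI gene 11687, chromosome 11 of mm9 from 70157654 to 70165533, minus strand) held 3, 9, 2, 4 and 5 counts in control replicates 1 to 5 and 7, 2, 9, 16 and 6 counts in ox-LDL replicates 1 to 5. It too was left out by the filter. The mean of log2(CPM + 1) was 0.27 in control and 0.48 in ox-LDL libraries, a difference of 0.21 (two-sided exact permutation test, p = 0.103). Without control replicate 2 or ox-LDL replicate 2 this p was 0.0476 or 0.0317. Its level was at most 0.385 CPM in a control and 0.765 CPM in an ox-LDL library. The 7 markers of resident peritoneal macrophages, which are known to express Alox15, summed to 63.5 to 200.3 CPM in control libraries and 47.6 to 268 CPM after ox-LDL, most of it Fn1 (up to 193 and 262 CPM), and 1 of the 5 tested was called higher and 0 lower. Their part in the level of Alox15 was not tested. Gata6 and Timd4, the defining members of this list, reached at most 2.07 and 0.254 CPM in control and 1.65 and 2.28 CPM in ox-LDL libraries.

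**Figure D2:**
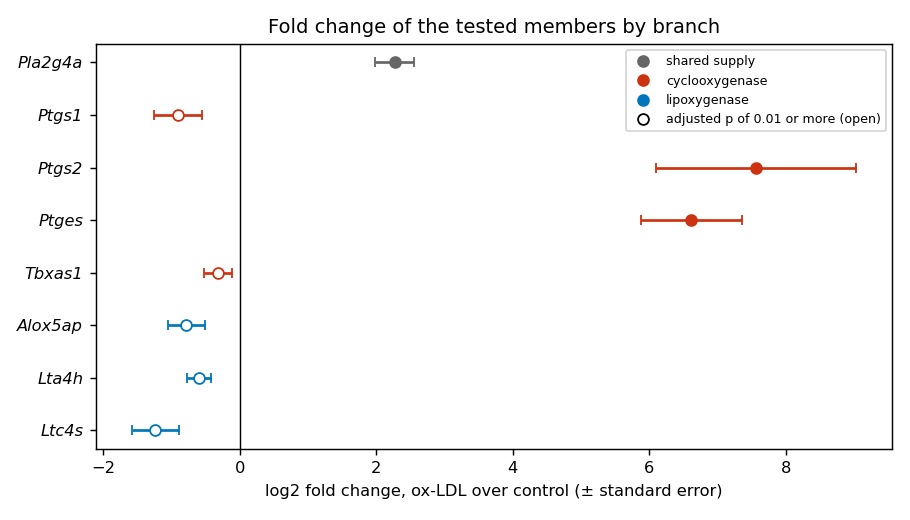
Log2 fold change of the 8 tested genes between ox-LDL and control libraries, with bars for the SE and color for the branch. Filled points passed an adjusted p of 0.01, namely Pla2g4a at 2.27, Ptgs2 at 7.57 and Ptges at 6.62, and the open points lie between -1.23 and -0.32.

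Set side by side, the cyclooxygenase branch held 2 genes called higher (Ptgs2 and Ptges) and 2 not called among its 4 members, all tested. The lipoxygenase branch held no called gene among the 3 of its 5 members that were tested. The median log2 fold change was 3.15 in the first, where it falls in the gap between the induced pair and the other two, and -0.78 in the second, against 0.10 over all genes tested. With so few members these medians are descriptions. Summed in FPKM, the 4 cyclooxygenase branch genes reached 45.8 to 59.4 in the control libraries and 94.5, 43.7, 184, 177 and 460 in ox-LDL replicates 1 to 5. The 5 lipoxygenase branch genes summed to 313 to 523 in control and 371, 149, 215, 238 and 138 in ox-LDL replicates 1 to 5, mostly Alox5ap. The ratio of these sums, cyclooxygenase over lipoxygenase, was 0.0875 to 0.159 in control libraries and 0.254, 0.294, 0.857, 0.743 and 3.33 in ox-LDL replicates 1 to 5. All ox-LDL ratios were above all control ratios, and only that of replicate 5 exceeded 1.

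**Figure D3:**
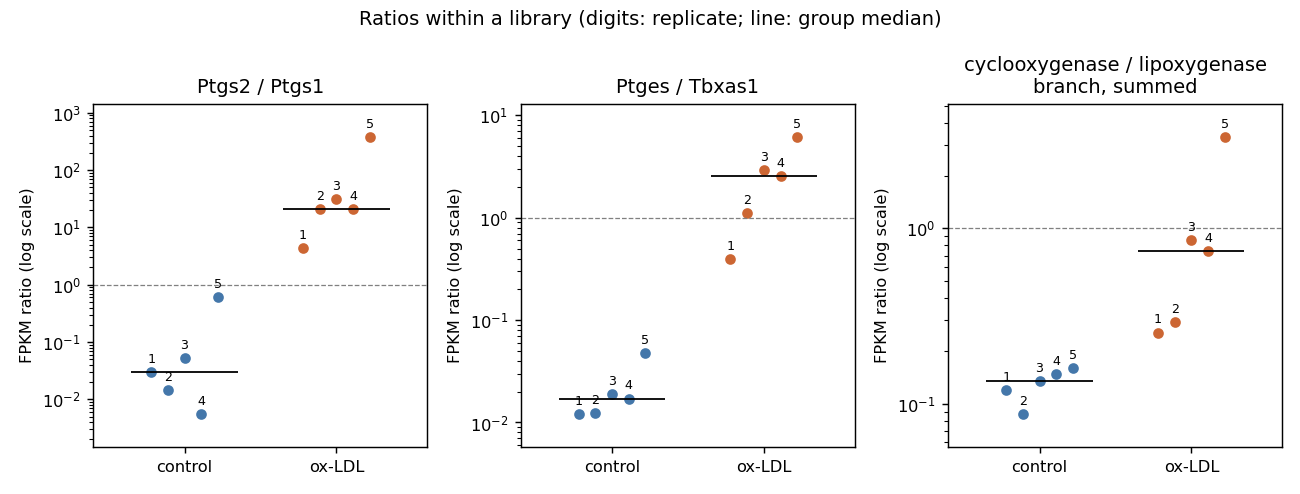
Ratios of FPKM within each library on log axes, with the replicate number above each point, a line at the group median and a dashed line at 1. The median ratio of Ptgs2 to Ptgs1 was 0.0303 in control and 21.1 in ox-LDL libraries, that of Ptges to Tbxas1 was 0.0172 and 2.55, and that of the summed branches was 0.135 and 0.743.

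Around these 10 genes, 69 further genes of eicosanoid metabolism and response were listed by role, of which 64 were matched to a row and 43 tested. Of these, 7 were called higher and 3 were called lower, a share of 23.3% against the 14.7% over all genes given above. The prostanoid receptors held 2 higher genes among 4 tested. Ptger2, a receptor for prostaglandin E that raises cyclic AMP, rose from 6.21 ± 1.49 to 17.7 ± 7.17 CPM (SD, n = 5 each), or by a log2 value of 1.51 (SE 0.28, edgeR adjusted p = 0.00190). The call was lost in limma on log2(FPKM + 1), at 0.82 (adjusted p = 0.0122), and on log2(FPKM + 0.1), at 1.06 (adjusted p = 0.0145). Ptgir, the prostacyclin receptor, had a log2 fold change of 1.58 (SE 0.36, edgeR adjusted p = 0.00706), but ox-LDL replicate 2 (35.4 CPM) lay below control replicate 3 (36.1 CPM). The call on Ptgir was lost when any of 7 libraries was left out, with an adjusted p of up to 0.0219, and it held in 12 of 26 alternatives in all. Ptger4, like Ptger2 a receptor for prostaglandin E, was at 5.84 ± 1.80 and 5.81 ± 1.06 CPM (SD, n = 5 each), a difference of -0.01 on the log2 scale (SE 0.24). Tbxa2r, the thromboxane receptor, had a mean of 0.0172 CPM in control libraries and no count in the ox-LDL libraries.

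Of the 10 other prostanoid synthases tested, 1 was lower and none higher. Hpgds, the hematopoietic prostaglandin D synthase, fell from 174, 128, 127, 187 and 88.6 CPM in control replicates 1 to 5 to 34.2, 31.0, 11.4, 10.1 and 1.67 CPM in ox-LDL replicates 1 to 5. The groups were far apart, and the lowest library was ox-LDL replicate 5, the one with the most Ptgs2 and Ptges. It was 7.99-fold lower (SE 0.62 on the log2 scale, edgeR adjusted p = 0.00381). The call was lost without control replicate 4, ox-LDL replicate 3 or ox-LDL replicate 4, with an adjusted p of at most 0.0123, and with no filter on low counts (adjusted p = 0.0227 from edgeR). Mast cells and eosinophils can also carry this enzyme, and the part of their markers, given above, was not tested. Ptges2 and Ptges3, the other prostaglandin E synthases, had log2 fold changes of 0.40 (SE 0.26) and 0.56 (SE 0.16) and were not called (edgeR adjusted p = 0.277 and 0.0203). Ptges thus was the prostaglandin E synthase that was called among the 3 tested. For Ptges3 too, all ox-LDL libraries (81.7 to 114 CPM) lay above all controls (61.3 to 71.4 CPM), to be read against the background share above. Among genes of transport and breakdown, Ptgr1, a reductase that inactivates prostaglandins and leukotriene B, rose from 81.3 ± 21.4 to 495 ± 163 CPM (SD, n = 5 each), or by a log2 value of 2.61 (edgeR adjusted p = 7.49e-05). Hpgd, which starts the breakdown of prostaglandin E, was too scarce to be tested, with 5 to 16 counts per control library and at most 1 per ox-LDL library.

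The list for phospholipases and the handling of arachidonic acid held 2 higher genes and 1 lower among 14 tested. Pla2g7, the secreted lipase that cleaves oxidized phospholipids and platelet-activating factor, rose from 408 ± 64.4 to 1715 ± 559.9 CPM (SD, n = 5 each), or by a log2 value of 2.07 (edgeR adjusted p = 2.68e-04). Pla2g16, an acyltransferase and phospholipase, was at 4.82 to 12.4 CPM in control libraries and rose to 40.3, 419, 51.3, 56.2 and 169 CPM in ox-LDL replicates 1 to 5, a log2 fold change of 4.17 (SE 0.70, edgeR adjusted p = 0.00108). Replicate 2 was far above the others, and without it the value was 3.24. With no filter on low counts the call was lost (4.11, edgeR adjusted p = 0.0117). Daglb, the diacylglycerol lipase whose product can be a source of arachidonic acid, fell from 126 ± 20.6 to 28.4 ± 9.46 CPM (SD, n = 5 each), on the log2 scale a difference of -2.15 (edgeR adjusted p = 9.55e-05). Acsl4 and Lpcat3, which return arachidonic acid to phospholipids, had log2 fold changes of 0.08 and 0.24 (edgeR adjusted p = 0.852 and 0.342).

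On the leukotriene side, 1 of 8 genes of conversion, transport and breakdown was higher. This was Abcc1, the exporter of leukotriene C, with a log2 fold change of 2.01 (SE 0.43, edgeR adjusted p = 0.00457). Its groups overlapped through ox-LDL replicate 2 (21.3 CPM, against 10.8 to 23.2 CPM in control libraries), and the call was lost when any of 6 libraries was left out and held in 14 of 26 alternatives in all. Among 4 receptor genes tested, 1 was lower and 1 higher. Cysltr1, the receptor for cysteinyl leukotrienes, fell from 18.8, 17.5, 16.9, 12.3 and 12.2 CPM in control replicates 1 to 5 to 4.65, 2.06, 1.02, 1.10 and 2.39 CPM in ox-LDL replicates 1 to 5, a log2 fold change of -2.78 (SE 0.39, edgeR adjusted p = 3.61e-04). The eosinophil sums given above were also lower after ox-LDL, while the mast cell sums overlapped, and their part in the fall of Cysltr1 was not tested.

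Fpr2, a receptor for lipoxin and formyl peptides, rose from 2.39 ± 1.54 to 370.4 ± 222 CPM (SD, n = 5 each), or by a log2 value of 7.26 (SE 0.61, edgeR adjusted p = 1.59e-05). Neutrophils also carry this receptor, and the 8 matched neutrophil markers summed to 17.9 to 44.0 CPM in control libraries and 24.3 to 92.3 CPM after ox-LDL, of which S100a8 reached 90.2 CPM after ox-LDL and Mmp8 37.1 CPM in the controls, whereas Elane and S100a9 were at most 0.0518 and 0.400 CPM in any library. Of the 2 neutrophil markers tested, 1 was called higher and 0 lower. The part of neutrophils in the rise of Fpr2 was not tested. Of the other lipoxygenases, 4 of 5 were matched and none had enough counts to be tested, with Alox12 at 0 in every control library and at a mean of 0.296 CPM in the ox-LDL libraries.

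**Figure D4:**
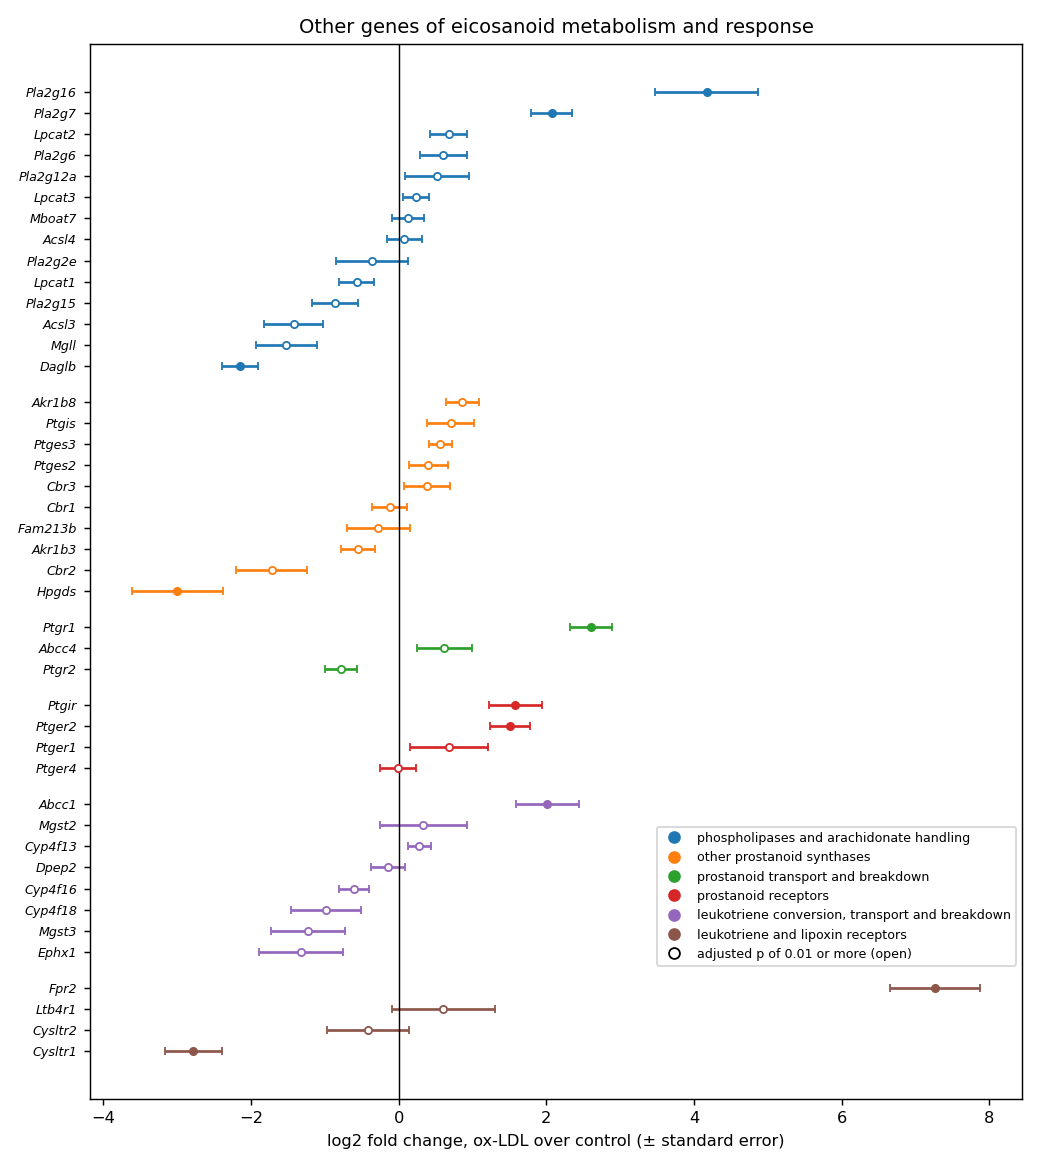
Log2 fold change between ox-LDL and control libraries, with SEs, of the 43 tested genes of the wider lists, grouped and colored by role. Filled points passed an adjusted p of 0.01: 7 lie to the right, from Ptger2 at 1.51 to Fpr2 at 7.26, and 3 to the left, Daglb at -2.15, Cysltr1 at -2.78 and Hpgds farthest out.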

How the data were processed

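RNA of 10 cultures was sequenced on the BGISEQ-500 platform. The submitters' processing notes name HISAT2 2.0.5, SAMtools 1.4, StringTie 1.3.3.13 and the mm9 build. The authors deposited estimated counts for each gene, of which 13.6% were not whole. The counting step and its use of strand are not given in the sources used here. The deposited value per gene and library names no unit and was taken as FPKM, since count over value and library total gave a near constant length per gene. Groups and replicate numbers came from the sample titles. Whether each library is a separate mouse is not stated beyond biological replicates, so p-values measure the spread between these libraries.

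Rows of 9788 circular RNAs were left out, and 6318 identifiers without a symbol were kept. Symbols came from a RefSeq table (22818 of 23382 NCBI identifiers matched), positions from the GENCODE annotation of NCBIM37 (mm9). Counts were rounded, filtered with filterByExpr, normalized by TMM and tested with edgeR 4.0.16 (quasi-likelihood, robust) in R 4.3.3, with Benjamini-Hochberg adjustment over 12654 genes. Each SE is the absolute log2 fold change over the root of F. Members removed by the filter were compared by an exact permutation test. Alternatives were DESeq2 1.42.0, limma 3.58.1 (voom, and log2(FPKM + 1) or log2(FPKM + 0.1) where FPKM was at least 1 in 5 libraries), other scalings, filters, thresholds and rows, removal of each library's trend on gene length, the replicate number as a block and each library left out. In simulated data for this comparison with 200 changed genes among 12654, 63 of 66 genes changed 8-fold, 40 of 67 changed 4-fold and 2 of 67 changed 2-fold were called, with 1 false call. The biological coefficient of variation was 37.3%. Small changes can therefore be missed. The adjustment depends on how many genes change, and 1866 genes were called in the data, so the simulated shares may not carry over.

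Named genes were the 10 members, the called genes of the wider lists with a few others for their level, and the 3 genes nearest to each called member, which for Ptgs2 are not reported here. The members, lists, motifs and tests were chosen with earlier results of these data known. Protein sequences were not used here.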

Additional observations from a re-analysis of the deposited data

Results flagged for a closer look

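Among 20 groups of 5 libraries (10 genes in each group), 3 held a library far from the others on the CPM scale. About 1 would be flagged by chance for independent groups of normally spread values. The groups here share the same libraries and CPM are skewed, so the count of flags cannot be read against chance. The share in brackets is the gap to the next library over the whole range of the group. Ptgs2 in control replicate 5 was at 7.91 CPM against 0.856 CPM in the next control (share 0.904). Ptgs2 in ox-LDL replicate 5 was at 1283 CPM against 240.3 CPM in the next ox-LDL library (share 0.836), and Pla2g4a in the same library was at 156 CPM against 79.7 CPM (share 0.746). Ptges in control replicate 5 stood at 0.793% of its level in ox-LDL replicate 5, and Ptgs2 at 0.616%. The other controls held Ptges at 1.63 to 3.08 CPM, against 6.08 CPM in control replicate 5. The cause of the levels in control replicate 5 was not tested. Both genes were called without the 2 libraries numbered 5.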

How the results depend on the processing

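Pla2g4a and Ptges were called in all 26 alternatives, with log2 fold changes of 1.80 to 2.40 and 4.94 to 7.21, and Ptgs2 in 24 of 25. The exception was no filter on low counts (7.51, adjusted p = 0.0257). With at least 10 counts required in every library, Ptgs2 and Ltc4s were not tested. Ptgs1, Tbxas1 and Alox5ap were not called in any of 26 alternatives and kept a negative sign.

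Lta4h passed with DESeq2 (-0.60), upper-quartile normalization (-0.75), log2(FPKM + 1) (-0.78), log2(FPKM + 0.1) (-0.80), the length trend removed (-0.56), an adjusted p below 0.05 (-0.59), and without control replicate 5 and ox-LDL replicate 2 (-0.74). Ltc4s passed with DESeq2 (-1.26), log2(FPKM + 1) (-1.16), log2(FPKM + 0.1) (-1.47), an adjusted p below 0.05 (-1.23), and without that pair (-1.56). With each library left out in turn, the log2 fold change was 6.11 to 9.81 for Ptgs2, -0.71 to -0.53 for Lta4h and -1.51 to -1.04 for Ltc4s. The 2 settings that leave out a pair of libraries were added after the data were seen. The median of the cyclooxygenase branch was 2.16 with log2(FPKM + 1).

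Genes called higher numbered 704 with library size alone, 555 and 543 with log2(FPKM + 1) and log2(FPKM + 0.1), 2045 at an adjusted p below 0.05, 605 with the added log2 cutoff of 2, 1843 without control replicate 5 and ox-LDL replicate 2, 809 without both libraries numbered 5, and 826 to 1755 with a library left out. Those called lower numbered 1244 with DESeq2, 1222 with the length trend removed, 1320 at 0.05, 244 with the cutoff of 2, 1483 without that pair, and 436 (without control replicate 4; 437 without ox-LDL replicate 3) to 1502 (without ox-LDL replicate 2). Of the wider lists, genes called higher numbered 4 with either FPKM setting and 5 to 8 with a library left out. Those called lower numbered 7 with DESeq2, 6 with log2(FPKM + 1), 5 with log2(FPKM + 0.1), 5 with the length trend removed, 8 at 0.05, 5 without both libraries numbered 5, 7 without control replicate 5 and ox-LDL replicate 2, and 2 (without control replicate 4) to 6 (without ox-LDL replicate 2). The cause was not tested. Scaling by library size alone moved the median log2 fold change of all genes from 0.10 to -0.09 and upper-quartile normalization to -0.05.

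The replicate numbers were shared between groups, but deviations of same-numbered libraries correlated at -0.24 to 0.40, above 0.1 for 2 of 5 pairs, and 3 of 10 libraries correlated best with their own number. With the replicate block, Pla2g4a (2.16), Ptgs2 (8.03) and Ptges (6.30) were called, Ptgir and Abcc1 were not (edgeR adjusted p = 0.0234 and 0.0146), and 5 genes of the wider lists were called lower. Counts near 0 limit Alox5 and Alox15.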
